A study of Bos taurus
Mus musculus and Bos taurus and Mus musculus with 5 samples.

Results

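The transcripts of 10 contractile genes, 3 of them tropomyosins, were followed in heterokaryons, which are cells that hold a bovine fibroblast nucleus and a mouse stem cell nucleus side by side. The genes were TPM1, TPM2, TPM4, ACTA2, TAGLN, CNN1, CALD1, MYL9, CSRP1 and ACTC1. They were picked by gene name, whatever the case of its letters, in a bovine and a mouse table of read counts. All 10 were listed in both, among 13921 gene names in the bovine and 24543 in the mouse table, or 26406 names in all.

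Heterokaryons were made by fusing bovine fetal fibroblasts (bFF) with mouse embryonic stem cells (mESC) in polyethylene glycol, and 200 cells were taken for a library at 24, 48 and 72 h after fusion. Unfused bFF and unfused mESC gave 1 library each, so each of the 5 groups had 1 library and no replicate. The bFF came from a single male fetus and were grown at 38.5 °C in medium with fetal bovine serum. The mESC were a C57BL/6 line grown at 37 °C on irradiated mouse embryonic fibroblast feeders, with the MEK inhibitor PD0325901 at 1 µM and the GSK3 inhibitor CHIR99021 at 3 µM. After fusion the inhibitors were left out of the medium, and the temperature was 37 °C. Heterokaryons and bFF thus differed not by fusion alone but also by their medium, their temperature and the cells around them, and heterokaryons and mESC by the inhibitors and the cells around them. The effects of these differences and of fusion cannot be told apart here.

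Tropomyosins are coiled-coil dimers that lie end to end along actin filaments and set which myosins and other proteins can bind there. ACTA2 (smooth muscle alpha-actin), TAGLN (transgelin or SM22), CNN1 (calponin), CALD1 (caldesmon) and MYL9 (a regulatory light chain of non-muscle and smooth muscle myosin) are the other parts of the contractile bundles that fibroblasts build when they stretch on a stiff surface. Many of these genes are known targets of the serum response factor SRF, whose partner protein MRTF enters the nucleus when actin monomers assemble into filaments.

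The bovine table held 982769, 1331989 and 1541793 reads for heterokaryons at 24, 48 and 72 h, against 2634269 for bFF, and the mouse table held 2427089, 1731084 and 1836299 reads for the same heterokaryons, against 3446461 for mESC. A level below is in CPM, the reads of a gene scaled by the reads of its own species in that library after TMM scaling, so it is a share of 1 species' RNA and not an amount per cell. Fewer cells or nuclei of a kind and less RNA from each cannot be told apart. Reads listed under the wrong species were estimated from the other species' control, at a median of 0.52% of a member's bovine reads at 24 h and at most 6.12%, for CSRP1, and at most 0.403% of a mouse member's reads at any time. Unfused bFF had the markers of fibroblasts, with COL1A1 at 4091 CPM and DCN at 9239 CPM. Of the listed smooth muscle genes, MYH11, DES and LMOD1 were at 1.08, 2.88 and 5.39 CPM there, while ACTG2 was at 288 CPM. SMTN, SYNPO2 and PLN of that list were at 1.44, 1.80 and 0 CPM in bFF. Unfused mESC had reads of all 11 listed stem cell markers, with a summed level of 17988 CPM, of which Dppa5a made up 15336 CPM. Lin28a was the lowest of them, at 8.90 CPM.

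The deposited bovine table places TPM2 on chromosome 8 and ACTA2 on chromosome 26, both on the minus strand, with lowest bases 60267451 and 10662363 in bosTau8. Actin genes are close copies of each other. In mouse, the coding sequences of Acta2 and Actc1 are 82.6% identical, with a longest shared run of 23 bases, and Acta2 shares a run of 56 bases with Actg1. Reads confined to such a run could be listed under either gene.

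In the bovine nucleus the summed level of the contractile genes was under that of bFF at 24 h and over it at 72 h. Together the 10 genes made up 3259, 8452 and 14153 CPM in heterokaryons at 24, 48 and 72 h, against 7597 CPM in bFF. The 24 h level was the lowest of the 4 libraries for 9 of the 10 genes, an order that 27.5% of the 7376 bovine genes at 10 CPM or more also had. All 10 genes were ordered 24 h under 48 h under 72 h, against 22.9% of those genes, and 8 of 10 were highest at 72 h, against 23.8%. The pattern of a 24 h dip was known when the 10 genes were chosen, so these counts describe them and are no test.

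**Figure D1:**
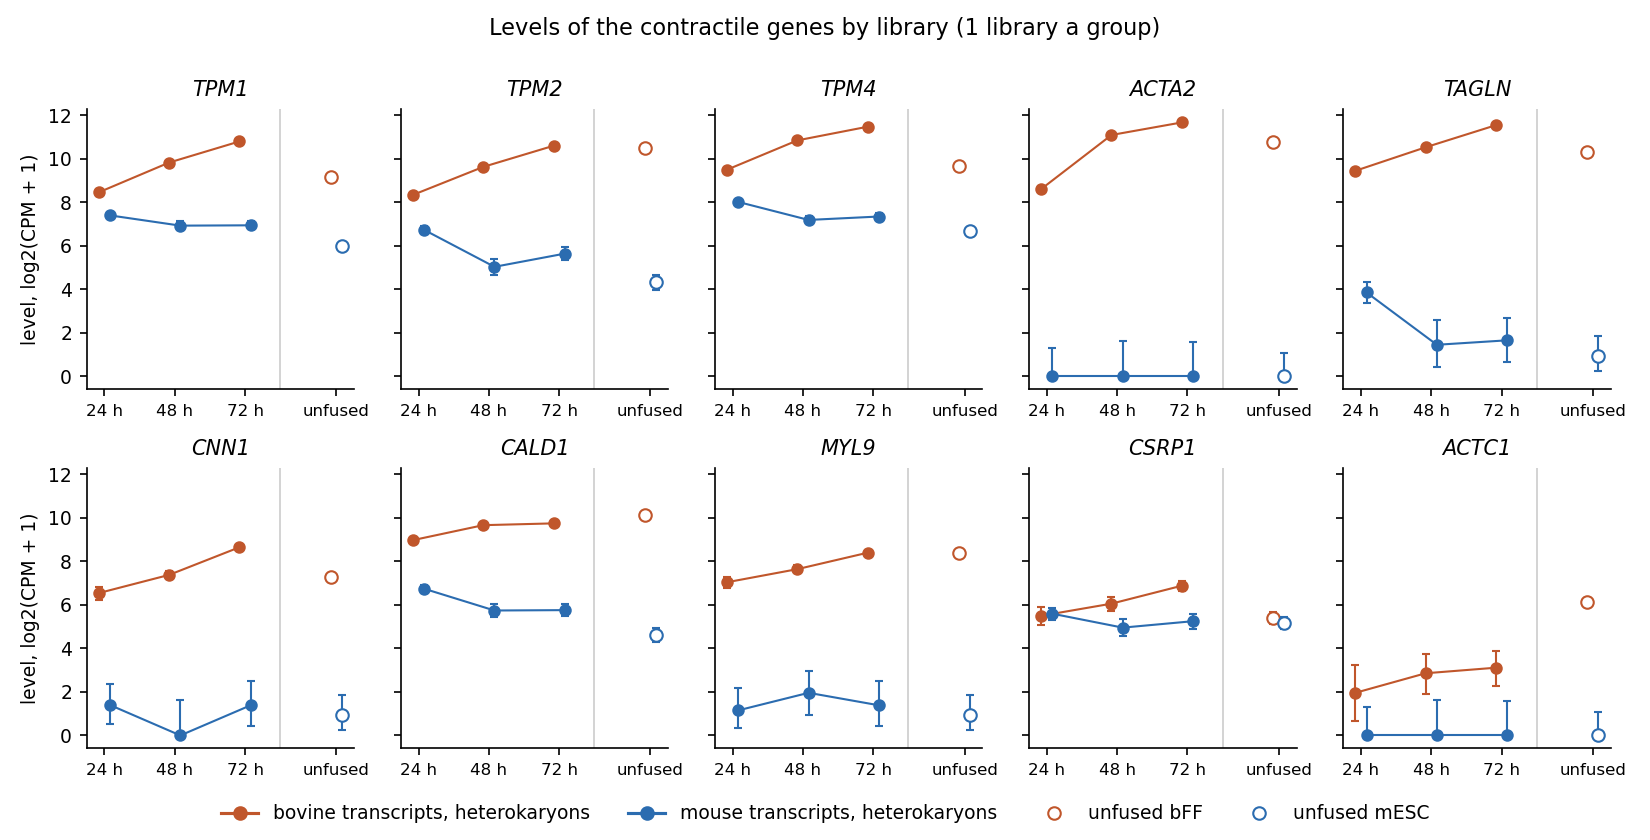
Level of each gene as log2(CPM + 1), in heterokaryons at 24, 48 and 72 h (filled) and in the unfused control of the same species (open), for bovine (orange) and mouse (blue) transcripts, with 1 library a group and bars for the 95% counting interval. Bovine lines climb from 24 to 72 h in all 10 panels, while mouse Tpm1, Tpm2, Tpm4, Tagln and Cald1 are highest at 24 h.

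Among the tropomyosins, TPM2 dipped furthest. Bovine TPM2 had 323, 790.5 and 1550.5 CPM in heterokaryons at 24, 48 and 72 h (336, 1012 and 2228 reads), against 1463 CPM in bFF (4068 reads). Its 24 h level was 0.221 times that of bFF (95% counting interval 0.197 to 0.247), and its 72 h level was 4.80 times that at 24 h (4.27 to 5.39) and 1.06 times that of bFF (1.01 to 1.12). These intervals, and all below, cover counting error only, and reads copied by PCR are not independent molecules.

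TPM1 and TPM4 were under the fibroblast level by less than 2-fold at 24 h, TPM4 by little, and well above it at 72 h. TPM1, which makes both long and short tropomyosins in mammals, had 351, 908 and 1780.1 CPM at 24, 48 and 72 h, against 569.9 CPM in bFF. At 24 h TPM1 was 0.616 times bFF (0.548 to 0.691), and at 72 h it was 3.12 times bFF (2.93 to 3.33). TPM4, known as the short tropomyosin of non-muscle cells, had 724, 1841 and 2847 CPM at 24, 48 and 72 h, against 826 CPM in bFF. The TPM4 level at 24 h was 0.877 times that of bFF (0.806 to 0.952), and at 72 h it was 3.45 times that of bFF (3.28 to 3.63). By 72 h all 3 tropomyosins were thus above their 24 h level by at least 3.93-fold, and only TPM2 was within 2-fold of bFF. The bovine table lists 1 transcript for each of these genes, so long and short forms cannot be told apart in the bovine nucleus.

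The smooth muscle actin gene ACTA2 had the largest fold of the 10 between 72 and 24 h. ACTA2 had 389.7, 2187 and 3263 CPM in heterokaryons at 24, 48 and 72 h (405, 2800 and 4689 reads), against 1736 CPM in bFF (4829 reads). That is 0.224 times bFF at 24 h (0.202 to 0.248), 1.26 times bFF at 48 h (1.20 to 1.32) and 1.88 times bFF at 72 h (1.80 to 1.96). Between 24 and 72 h ACTA2 differed by 8.37-fold (7.56 to 9.29), and most of that step lay between 24 and 48 h, at 5.61-fold (5.05 to 6.24).

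TAGLN and CNN1, which bind actin and are widely used with ACTA2 as markers of contractile cells, were nearer to bFF at 24 h. TAGLN had 698, 1478 and 2990.3 CPM at 24, 48 and 72 h, against 1269 CPM in bFF, which is 0.550 times bFF at 24 h (0.507 to 0.596) and 2.36 times bFF at 72 h (2.25 to 2.46). CNN1 had 92.4, 166 and 401 CPM at 24, 48 and 72 h, against 154 CPM in bFF, which is 0.599 times bFF at 24 h (0.475 to 0.749) and 2.60 times bFF at 72 h (2.29 to 2.95). Both were thus under bFF by less than 2-fold at 24 h and over it by more than 2-fold at 72 h.

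CALD1 and MYL9, which regulate myosin on actin, ended at or under the fibroblast level. CALD1, which blocks myosin on actin until it is phosphorylated, had 503, 812 and 859 CPM at 24, 48 and 72 h, against 1136 CPM in bFF. CALD1 was 0.443 times bFF at 24 h (0.403 to 0.486) and 0.756 times bFF at 72 h (0.708 to 0.808), so it came part of the way back. MYL9 had 131, 199 and 337 CPM at 24, 48 and 72 h, against 332 CPM in bFF, which is 0.394 times bFF at 24 h (0.327 to 0.472) and 1.01 times bFF at 72 h (0.906 to 1.13). CSRP1, a LIM protein of actin bundles, had 44.3, 65.6 and 117 CPM at 24, 48 and 72 h, against 41.4 CPM in bFF. CSRP1 showed no dip, with a 24 h level 1.07 times that of bFF (0.743 to 1.52), and was 2.83 times bFF at 72 h (2.22 to 3.62).

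ACTC1, the cardiac muscle actin gene, stayed far under the fibroblast level at all 3 times. It had 3, 8 and 11 bovine reads in heterokaryons at 24, 48 and 72 h, against 190 in bFF, or 2.89, 6.25 and 7.66 CPM against 68.3 CPM. ACTC1 was 0.0423 times bFF at 24 h (0.00864 to 0.125) and 0.112 times bFF at 72 h (0.0550 to 0.205). Its ratio of 2.65 between 72 and 24 h has a counting interval of 0.700 to 14.8, so no difference between these times was detectable at this depth.

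A change was called by size where log2(CPM + 1) differed by at least 2-fold between 2 libraries and 1 of them reached 10 CPM. Where only 1 of the 2 libraries reached 10 CPM, the direction of a call is fixed by this filter. That holds for members, for the lists below and for all genes alike. At 24 h against bFF, 5 of 10 bovine members were lower (TPM2, ACTA2, CALD1, MYL9 and ACTC1) and 0 were higher, while 14.8% of all 7054 bovine genes compared were lower and 13.4% higher. At 48 h against bFF only TPM4 was higher and only ACTC1 lower, with 11.4% and 15.1% of all genes in these directions. At 72 h against bFF 5 members were higher (TPM1, TPM4, TAGLN, CNN1 and CSRP1) and ACTC1 was lower, with 12.7% and 15.5% of all genes. Between the times, 5 of 9 members compared were higher at 48 than at 24 h (6.01% of all genes), 2 of 9 were higher at 72 than at 48 h (3.84%), and 8 of 9 were higher at 72 than at 24 h (8.16%). None was lower in these 3 comparisons, in which 7.74%, 3.41% and 8.54% of all genes were. At 24, 48 and 72 h the members' median log2 fold over bFF was -1.02, 0.16 and 1.07, and that of all genes was -0.09, -0.08 and -0.03.

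A dip with a return was defined as at least 2-fold lower at 24 h than in bFF and at least 2-fold higher at 72 than at 24 h. TPM2, ACTA2, MYL9 and ACTC1 had it, 4 of 10, against 3.59% of the 7376 bovine genes, and ACTC1 through 3 and 11 reads, while still under bFF at 72 h. ACTC1 reached 10 CPM only in bFF, so that it was lower than bFF is fixed by the filter, and without it 4 of 9 members were lower at 24 h, 0 of 9 were lower at 72 h and 3 of 9 had the dip with return. The members nearest to the limit were CALD1, which was 1.71 times as high at 72 as at 24 h (1.54 to 1.90), and TAGLN, whose dip to 0.550 times bFF fell short of it. At a 1.5-fold limit 8 of 10 members had the pattern and at a 4-fold limit 2 had it, TPM2 and ACTA2. With a pseudocount of 5 in place of 1 ACTC1 no longer had it.

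**Figure D2:**
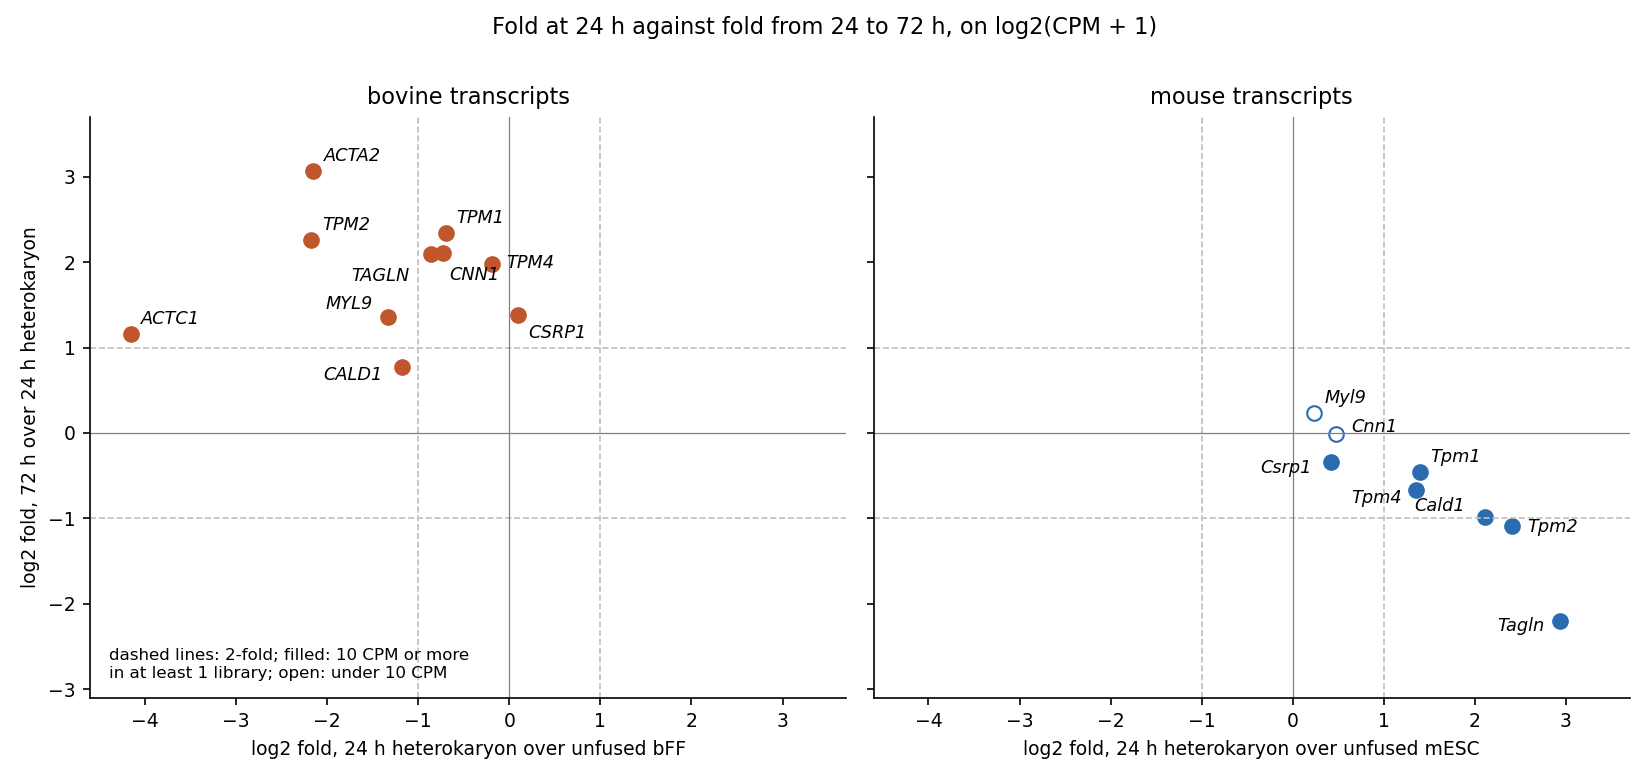
Log2 fold of each gene at 24 h against its unfused control (x axis) and at 72 h against 24 h (y axis), on log2(CPM + 1), with dashed lines at 2-fold. Bovine TPM2, ACTA2, MYL9 and ACTC1 lie in the upper left, low at 24 h and higher at 72 h, and mouse Tpm2 and Tagln in the lower right, high at 24 h and lower at 72 h.

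The 3 heterokaryon libraries were tested as 1 group against the control with edgeR's quasi-likelihood test, in which differences between the times are part of the error. ACTC1 was the only one of the 10 bovine members to pass. ACTC1 was lower, with a log2 fold change of -3.55 ± 0.48 (SE) and an edgeR adjusted p of 0.00109, and all alternatives gave at most 0.0146. It entered this test only through its level in bFF, so its direction is fixed by the filter of 10 CPM. With no filter on low counts its edgeR adjusted p was 0.000639. Of the 7376 bovine genes tested, 4.77% passed as lower and 4.37% as higher. The other 9 members had edgeR adjusted p-values from 0.249 for TPM4 to 0.922 for ACTA2. Without the 24 h library TPM1, TPM4, ACTA2, TAGLN, CNN1 and CSRP1 passed as higher, with TPM1 at a log2 fold change of 1.22 ± 0.25 (edgeR adjusted p = 2.19e-05). Without the 72 h library TPM2 passed as lower, at -1.39 ± 0.35 (edgeR adjusted p = 0.00156), and so did MYL9, at -1.01 ± 0.36 (edgeR adjusted p = 0.0485).

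In the mouse nucleus the tropomyosin genes and Cald1 were highest at 24 h, and 4 of the 10 genes were at or near 0 reads. The 10 mouse genes together made up 701, 385 and 428 CPM in heterokaryons at 24, 48 and 72 h, against 244 CPM in mESC. Acta2 and Actc1 had 0 reads in all 4 libraries, where a count of 0 allows up to 1.22, 1.73 and 1.61 CPM (3 reads) in heterokaryons at 24, 48 and 72 h, against 0.890 CPM in mESC. Cnn1 had 4, 0 and 3 reads at 24, 48 and 72 h, against 3 in mESC, and Myl9 had 3, 5 and 3 reads against 3 in mESC. These 4 genes stayed under 10 CPM and were not compared. The 6 left were Tpm1, Tpm2, Tpm4, Tagln, Cald1 and Csrp1, and Tagln was compared only because its 24 h level passed 10 CPM. Its high 24 h level is therefore fixed by the filter, and Tagln is left out of the member counts below.

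Mouse Tpm2 had 105, 31.8 and 48.9 CPM in heterokaryons at 24, 48 and 72 h (258, 55 and 91 reads), against 18.99 CPM in mESC (64 reads). This is 5.54 times mESC at 24 h (95% counting interval 4.20 to 7.41), 1.67 times at 48 h (1.15 to 2.44) and 2.58 times at 72 h (1.85 to 3.60). Tpm1 had 168, 121 and 122 CPM at 24, 48 and 72 h, against 63.2 CPM in mESC, or 2.65 times mESC at 24 h (2.24 to 3.15) and 1.93 times at 72 h (1.59 to 2.34). Tpm4 had 258, 145 and 162 CPM at 24, 48 and 72 h, against 100.3 CPM in mESC, or 2.57 times mESC at 24 h (2.25 to 2.94) and 1.61 times at 72 h (1.38 to 1.89). All 3 tropomyosins were highest at 24 h and still above mESC at 72 h beyond counting error.

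Cald1 had 106, 52.6 and 53.2 CPM at 24, 48 and 72 h, against 23.7 CPM in mESC, which is 4.47 times mESC at 24 h (3.47 to 5.82) and 2.24 times at 72 h (1.65 to 3.05). Tagln had 33, 3 and 4 reads at 24, 48 and 72 h, against 3 in mESC, so its 24 h level was 15.1 times that of mESC with an interval of 4.75 to 77.1. Its 72 h level was 0.160 times that at 24 h (0.0411 to 0.449). Csrp1 had 47.3, 30.04 and 37.1 CPM at 24, 48 and 72 h, against 35.01 CPM in mESC, and its 24 h level was 1.35 times that of mESC (1.04 to 1.76). Cald1 was thus highest at 24 h, as the tropomyosins were, and Csrp1 lay near its mESC level throughout.

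By the same 2-fold rule, 4 of 5 mouse members (Tpm1, Tpm2, Tpm4 and Cald1) were higher at 24 h than in mESC, against 8.34% of the 8466 mouse genes compared, and 0 were lower, against 7.68%. At 48 h Cald1 alone was higher than in mESC, among 5 members compared (5.39% of all genes), and 0 were lower (6.74%). At 72 h Tpm2 and Cald1 were higher, among 5 (3.51%), and 0 were lower (4.84%). Tpm2 alone of the 5 was lower at 48 than at 24 h (5.04% of all genes) and also at 72 than at 24 h (6.38%), and 0 were higher (2.93% and 3.41%). Between 48 and 72 h 0 of 5 passed in either direction (2.16% higher and 2.56% lower among all genes). All 5 were highest at 24 h, as were 26.5% of the 8857 mouse genes at 10 CPM or more. None was lowest at 24 h (27.9% of these genes), highest at 72 h (15.1%) or ordered 24 h under 48 h under 72 h (19.2%), and no bovine member was highest at 24 h (23.4% of bovine genes). A peak, at least 2-fold higher at 24 h than in mESC and at least 2-fold lower at 72 than at 24 h, was found for Tpm2, 1 of 5, against 3.47% of these genes. Tagln also had it, with the reads given above. Just outside the limit lay Cald1, whose 72 h level was 0.502 times that at 24 h (0.394 to 0.635) on the linear scale, and at a 1.5-fold limit Cald1 and Tpm4 also had the peak. No bovine member had this peak (3.66% of bovine genes) and no mouse member the dip with return (2.09% of mouse genes).

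None of the 6 mouse members passed edgeR's test of the 3 heterokaryon libraries against mESC, which 0.576% of the 8857 genes passed as higher and 0.406% as lower. Unadjusted p-values were under 0.05 for 4 of them. Tpm1 came nearest, with a log2 fold change of 1.12 ± 0.28 (SE, edgeR adjusted p = 0.0717), then Cald1 with 1.58 ± 0.43 (edgeR adjusted p = 0.0900), and Tpm2 with 1.72 ± 0.53 (edgeR adjusted p = 0.132). With DESeq2 Tpm1 (adjusted p = 0.0115) and Cald1 (adjusted p = 0.0215) passed. Tpm1 also passed edgeR when the scaling was computed after the filter on low counts (adjusted p = 0.0419), so its call rests on the processing. Without the 24 h library Tpm1, Tpm2 and Cald1 passed as higher and Tpm4 did not. Their log2 fold changes were then 0.99 ± 0.25, 1.14 ± 0.37, 1.20 ± 0.33 and 0.66 ± 0.24. Leaving out the 72 h library let Tpm1, Tpm2, Tpm4 and Cald1 pass as higher, with Tpm2 at 1.87 ± 0.48 (edgeR adjusted p = 0.0219).

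The mouse table also separates the transcripts of a gene, and all 22 transcripts of the mouse members could be matched to GENCODE M21 on GRCm38. The match was not 1 to 1, as more than 1 Tpm2 transcript was matched to the same GENCODE one. Listed Tpm2 transcripts had their lowest base at 43513726, and the matched ones at 43514711 or 43514712. The lengths behind the Tpm2 RPKM below are therefore uncertain. Tropomyosin genes make long proteins from an upstream first exon and short ones from an internal first exon, and the long forms are the ones known from contractile bundles. Tpm1 lies on chromosome 9, minus strand, and its 10 listed transcripts fall into 6 with upstream 5′ ends, between 67049172 and 67049406, and 4 with internal 5′ ends, between 67043733 and 67043962. The upstream forms have 843 to 852 coding bases and the internal ones 735 to 744. The first 60 coding bases are shown for 1 transcript of each kind, beside Tpm2 and Tpm4, because these ends are what tells the forms apart. Capitals in Tpm2 mark the 7 bases that differ from the upstream form of Tpm1 at the same position, and capitals in Tpm4 the 15 that differ from the internal form of Tpm1.
Tpm1 upstream form, chr9:67022590-67049406, minus strand: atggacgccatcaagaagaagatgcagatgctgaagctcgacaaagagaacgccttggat
Tpm2, chr4:43514711-43523595, minus strand: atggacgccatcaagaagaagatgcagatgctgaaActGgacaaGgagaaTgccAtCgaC
Tpm1 internal form, chr9:67022590-67043907, minus strand: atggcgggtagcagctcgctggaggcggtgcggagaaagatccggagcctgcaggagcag
Tpm4, chr8:72135259-72153142, plus strand: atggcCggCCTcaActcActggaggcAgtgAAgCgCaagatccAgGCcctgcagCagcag

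The upstream forms of Tpm1 took a larger share of its reads in heterokaryons than in mESC. They held 258 of 411 Tpm1 reads at 24 h, 131 of 209 at 48 h and 153 of 227 at 72 h, against 100 of 213 in mESC. These shares were 62.8% (95% exact binomial interval 57.9 to 67.5), 62.7% (55.7 to 69.3) and 67.4% (60.9 to 73.5), against 46.9% in mESC (40.1 to 53.9). Per transcript length and mouse reads of the library, in RPKM, the upstream forms were at 67.2, 51.3 and 56.9 in heterokaryons at 24, 48 and 72 h, against 18.3 in mESC. The internal forms were at 40.3, 30.2 and 26.0 RPKM, against 21.3 RPKM in mESC. How the authors' counting divided reads that fit several transcripts of a gene is not given in the sources used here, so the split between forms is less certain than the total.

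All 3 listed Tpm2 transcripts start at the upstream end and code for 852 bases, and Tpm4 has 1 transcript, of the short kind. Their levels were 76.7, 21.99 and 34.9 RPKM for Tpm2 at 24, 48 and 72 h, against 12.6 in mESC, and 122, 68.1 and 77.0 RPKM for Tpm4, against 46.1 in mESC. Tpm3, the tropomyosin gene outside the 10 and named here after its values were seen, was the most abundant of the family. It had 282, 217 and 259.7 RPKM at 24, 48 and 72 h, against 304 in mESC, and its upstream forms held 26.7%, 25.0% and 22.7% of its reads at these times, against 26.5% in mESC. Tpm3 thus showed neither the 24 h level over mESC nor the shift in form of Tpm1. Coding sequences of the longest listed transcripts of the 4 genes were 73.2% to 76.9% identical over aligned bases, and the longest run shared by a pair, 35 bases, was between Tpm1 and Tpm2, so reads confined to such a run could be listed under either gene.

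**Figure D3:**
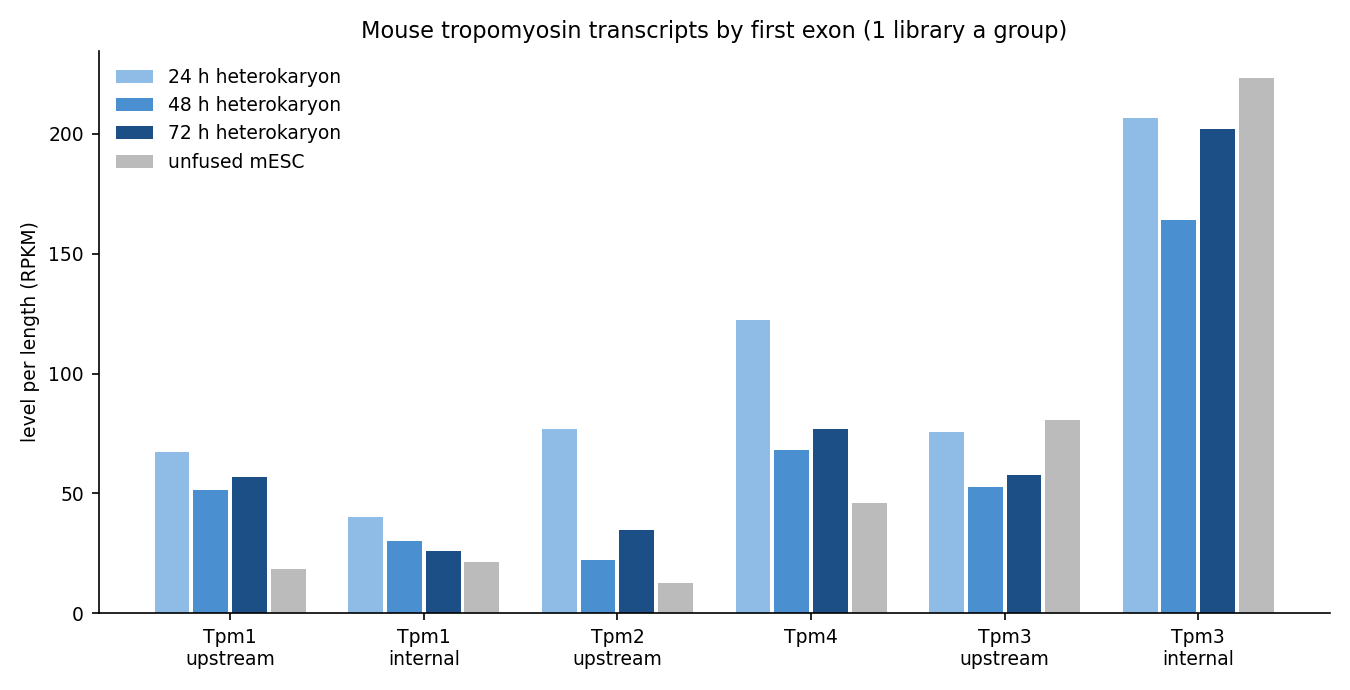
Level per length (RPKM, scaled by library total) of mouse tropomyosin transcripts, grouped by first exon, in heterokaryons at 24, 48 and 72 h (blue) and in unfused mESC (grey), 1 library each. Bars of Tpm1 upstream forms, Tpm2 and Tpm4 are tallest at 24 h, while Tpm3 internal forms are tallest in mESC, and no error is drawn because there are no replicates.

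Cald1 has 2 listed mouse transcripts, from an upstream and an internal start. The upstream one held 115 of 260 reads at 24 h, 25 of 91 at 48 h and 40 of 99 at 72 h, against 26 of 80 in mESC. Its shares of 44.2% (38.1 to 50.5), 27.5% (18.6 to 37.8) and 40.4% (30.7 to 50.7) overlapped in their intervals with the 32.5% of mESC (22.4 to 43.9).

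In the fused cells the source of these transcripts was mixed at 24 h and mostly bovine later. Bovine reads made up 66.4%, 94.2% and 96.2% of the reads of the 10 genes at 24, 48 and 72 h, with exact binomial intervals of 65.0% to 67.7%, 93.8% to 94.6% and 96.0% to 96.5%. Over all genes the bovine share of reads was 28.8%, 43.5% and 45.6% in these libraries. TPM1 was 47.0% bovine at 24 h (43.5 to 50.6), 84.8% at 48 h and 91.8% at 72 h (90.8 to 92.8). TPM2 was 56.6% bovine at 24 h (52.5 to 60.6) and 96.1% at 72 h, and TPM4 was 54.3% at 24 h (51.7 to 57.0) and 93.1% at 72 h. ACTA2 was wholly bovine at each time, with 0 mouse reads against 405, 2800 and 4689 bovine ones, and TAGLN, CNN1 and MYL9 were at least 95.6% bovine. CSRP1 had the lowest bovine share of the 10 at each time, at 28.4% at 24 h (21.6 to 36.0), an interval that holds the 28.8% of all reads, and at 70.9% at 72 h (64.7 to 76.6). Shares within a library compare reads of orthologs whose transcripts differ in length and mapping, which was not corrected.

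**Figure D4:**
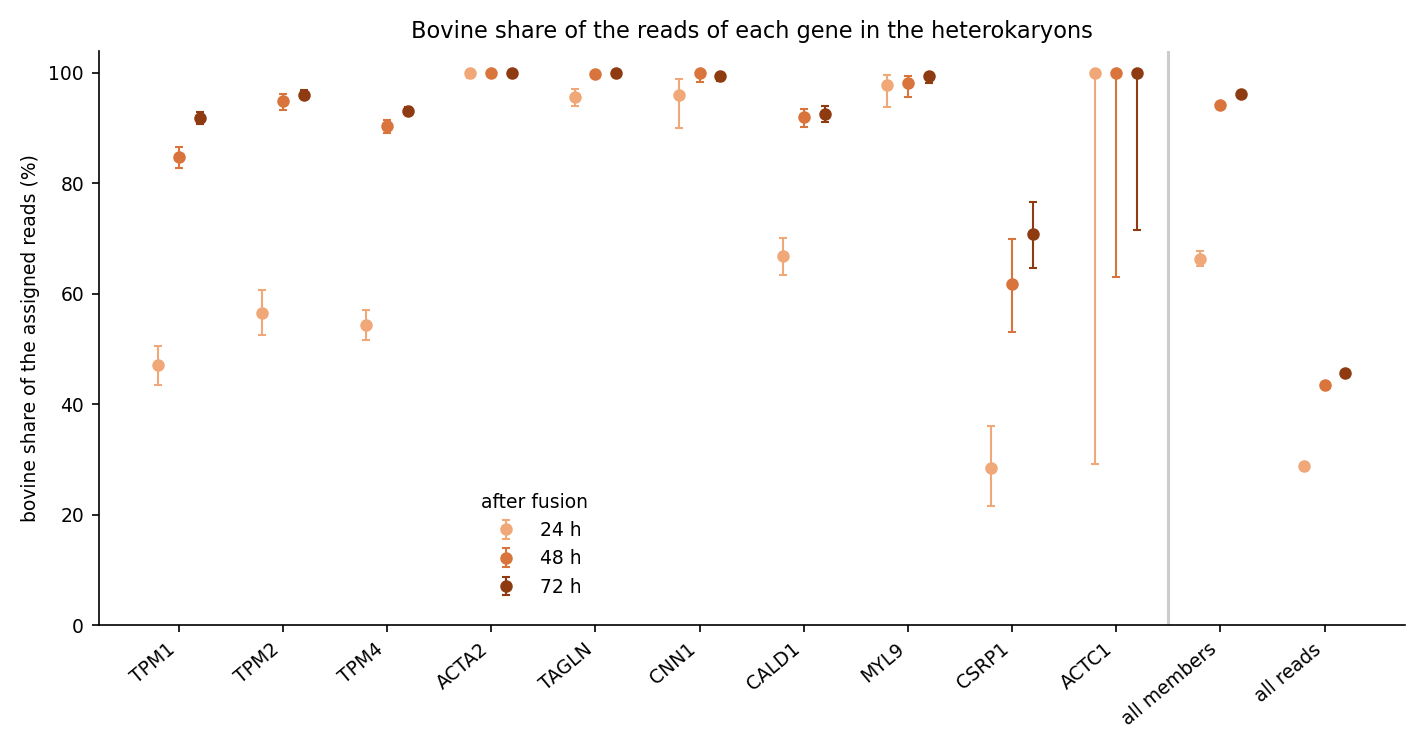
Bovine share of the assigned reads of each gene in heterokaryons at 24, 48 and 72 h (light to dark), with 95% exact binomial intervals, and at the right the same for the 10 genes summed and for all reads. The 3 tropomyosins and CALD1 lie between 47.0% and 66.8% at 24 h and at 91.8% or more at 72 h.

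Other genes of the actin system were compared from a list of 40, of which 31 to 32 could be compared in the bovine and 26 to 28 in the mouse table. Among bovine genes, 1 of 31 was higher and 4 were lower at 24 h than in bFF, near or below the 13.4% and 14.8% of all genes. At 48 h 5 of 32 were higher and 1 lower (11.4% and 15.1% of all genes), and at 72 h 9 of 32 were higher and 2 lower (12.7% and 15.5%). Their median log2 folds over bFF were -0.11, 0.20 and 0.60 in the order of the times. SMTN, higher at 48 and 72 h, was at 1.44 CPM in bFF, and SVIL, lower at 72 h, was at 4.87 CPM at that time. The direction of both is thus fixed by the filter of 10 CPM. ACTG2 (smooth muscle gamma-actin), MYH10 (non-muscle myosin IIB) and CNN2 (calponin 2) had the dip with return, 3 of 32, against 3.59% of all genes. MYH10 had 80.8, 180.4 and 356 CPM at 24, 48 and 72 h, against 311 CPM in bFF, and CNN2 had 16.4, 80.5 and 96.0 CPM, against 64.7 CPM in bFF. ACTG2 had 90.5, 249 and 446 CPM, against 288 CPM in bFF. The cytoplasmic actins, named after their values were seen, had no dip, and ACTB was at 5910 CPM at 24 h, 15288 at 48 h and 23815 at 72 h, against 5718 in bFF. At the other end TAGLN2 (transgelin 2), at 483, 594 and 761 CPM against 207 CPM in bFF, was higher at all 3 times. With the 3 heterokaryon libraries as 1 group, TAGLN2 had a log2 fold change over bFF of 1.56 ± 0.36 (edgeR adjusted p = 0.0178). It was the only 1 of 32 to pass edgeR, while 3 passed DESeq2. MYL12B, a second regulatory myosin light chain, had the lowest fold between 72 and 24 h among listed genes at 50 CPM or more, at 163, 148 and 76.6 CPM, against 213 CPM in bFF.

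In the mouse nucleus 6 of 28 genes of the same list were higher and 1 lower at 24 h than in mESC (8.34% and 7.68% of all genes), and at 72 h 3 of 26 were higher and 0 lower (3.51% and 4.84%). Among the higher ones, Myh10 at both times and Lpp at 24 h were under 10 CPM in mESC, so their direction is fixed by the filter. Lpp, a LIM protein of focal adhesions, had the 24 h peak, 1 of 28, near the 3.47% of all genes. Among those at 50 CPM or more, Tagln2 had the highest fold over mESC at 24 h, at 482, 285 and 266 CPM, against 212 CPM in mESC. Actg1, cytoplasmic gamma-actin, had the lowest, at 786, 1039 and 1458 CPM against 2147 CPM in mESC. The gene TAGLN2 was thus over its control at 24 h in both nuclei, while for Actg1 the bovine levels of 3390.2, 6656 and 9008 CPM lay above the 2253 CPM of bFF. None of the 28 mouse genes passed edgeR (0) or DESeq2 (0), and 8 had an unadjusted edgeR p under 0.05.

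A list of 31 genes of actin turnover and of SRF and its targets followed. In the bovine nucleus 1 of 20 genes compared was higher and 2 were lower at 24 h than in bFF, below the 13.4% and 14.8% of all genes. The 1 higher was PPP1R14A, at 10.6 CPM against 2.16 CPM in bFF, so its direction is fixed by the filter of 10 CPM. At 72 h 6 of 20 were higher and 0 lower (12.7% and 15.5% of all genes). Among these 6, SRF was under 10 CPM in bFF, so its direction too is fixed by the filter. ANKRD1, a target of the SRF and YAP factors, had 78.9, 239.8 and 489 CPM at 24, 48 and 72 h, against 195 CPM in bFF, and CFL2, the muscle cofilin that severs actin filaments, had 111, 309 and 326 CPM, against 325 CPM in bFF. These 2 of 22 had the dip with return, against 3.59% of all genes. FHL1, a LIM protein, had the highest fold over bFF at 24 h among listed genes at 50 CPM or more, at 59.7, 37.5 and 41.8 CPM, against 32.7 CPM in bFF. None of the 22 passed edgeR (0), with 3 at an unadjusted p under 0.05, and 1 passed DESeq2.

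In the mouse nucleus 9 of 26 genes of this list were higher and 0 lower at 24 h than in mESC (8.34% and 7.68% of all genes), and at 72 h 3 of 24 were higher and 0 lower (3.51% and 4.84%). Among the higher ones, Srf, Mkl2 and Fhl2 at 24 h and Srf at 72 h were under 10 CPM in mESC. Their direction is thus fixed by the filter. The 24 h peak was found for Tmsb4x, Cyr61, Ctgf and Fhl2, 4 of 26, against 3.47% of all genes. Fhl2 passed 10 CPM only at 24 h, with 30, 0 and 4 reads against 5 in mESC, so its peak is fixed by the filter. Tmsb4x, which encodes the actin-monomer binding thymosin beta 4, had 1021, 406 and 275 CPM at 24, 48 and 72 h, against 126 CPM in mESC. Cyr61, a secreted matrix protein and a classic target of SRF and YAP, had 232, 98.2 and 83.3 CPM, against 28.2 CPM in mESC. With the 3 heterokaryon libraries as 1 group, Cyr61 was higher than in mESC by 2.30 ± 0.49 (log2, edgeR adjusted p = 0.0382). It was the only 1 of 26 to pass, and 7 had an unadjusted p under 0.05. Cyr61 did not pass with DESeq2 or with a filter of 50 CPM (adjusted p-values over all alternatives from 7.11e-07 to 0.203). In the bovine nucleus the gene CYR61 instead had 109.7, 257 and 375 CPM at these times, against 175 CPM in bFF. Mouse Srf had 35, 14 and 20 reads at 24, 48 and 72 h, against 10 in mESC.

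**Figure D5:**
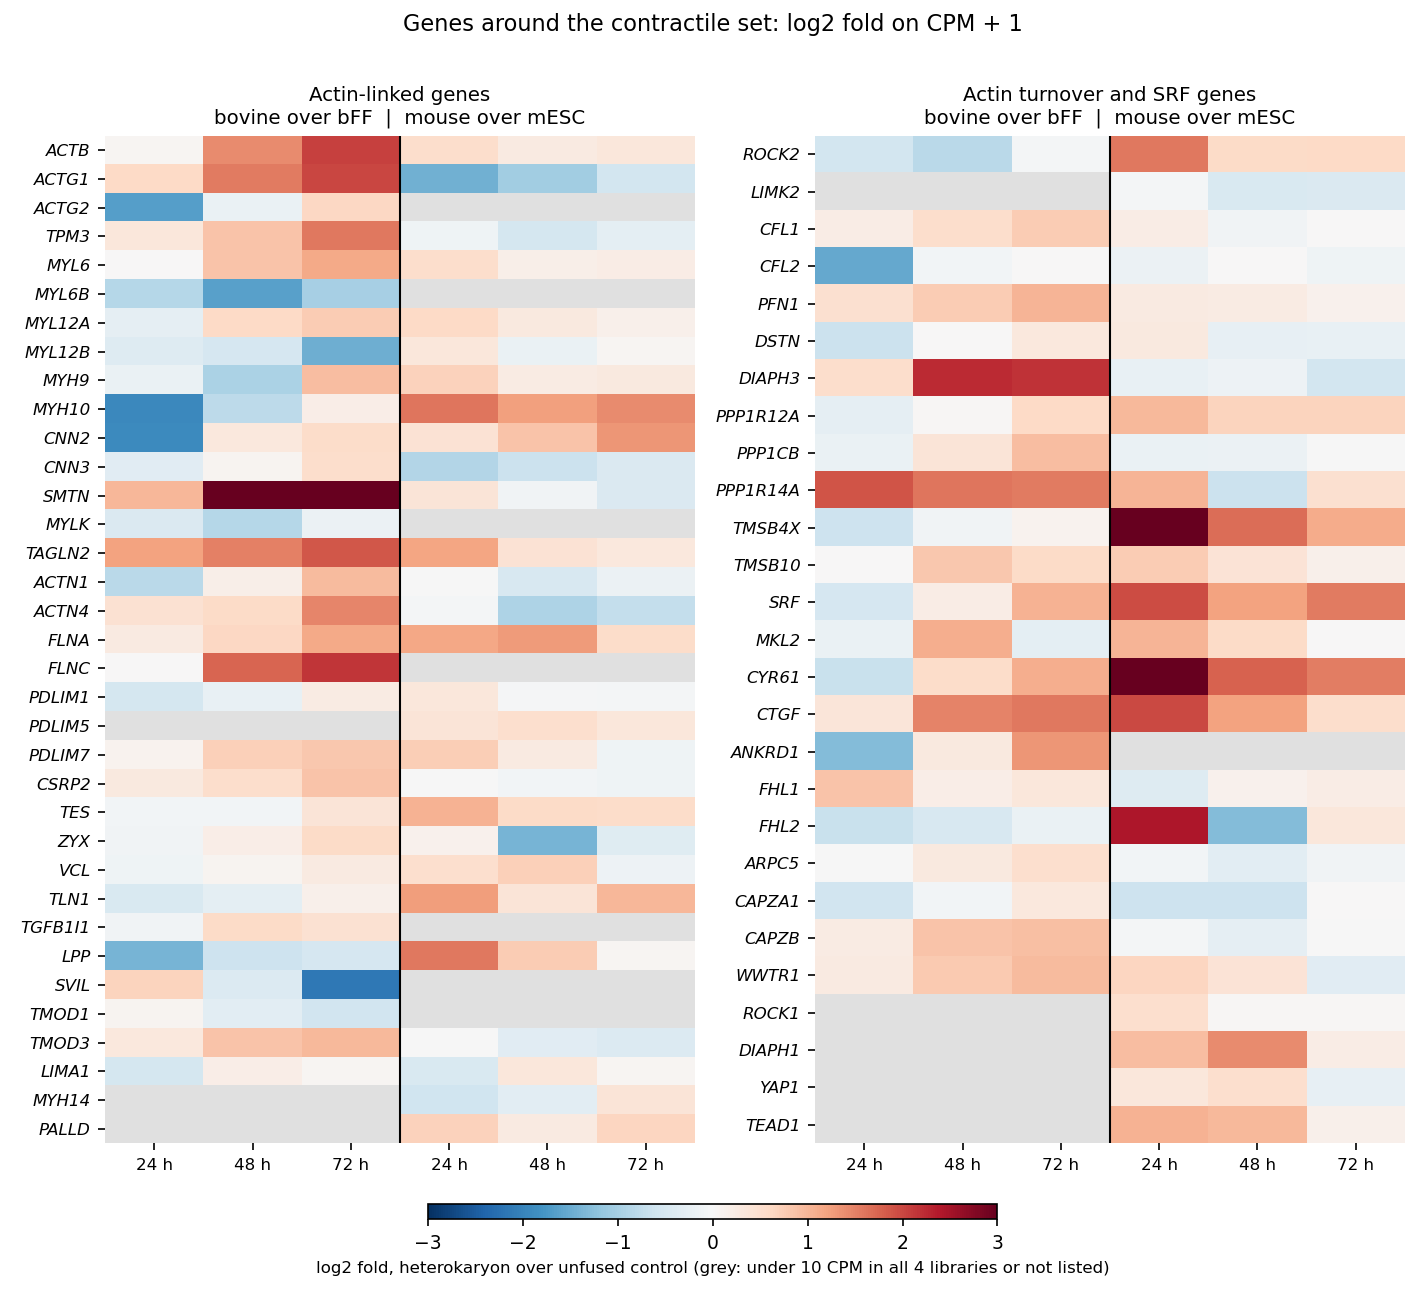
Log2 fold over the unfused control (colour, capped at -3 blue and 3 red) at 24, 48 and 72 h for listed actin-linked genes (left) and genes of actin turnover and SRF (right), with bovine columns over bFF beside mouse columns over mESC and grey where a gene stayed under 10 CPM. Bovine MYH10, CNN2, CFL2 and ANKRD1 are blue at 24 h and not at 72 h, while mouse Tmsb4x and Cyr61 are deepest red at 24 h.

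Few striated muscle genes were measured beside the cardiac actin. Of 27 listed, 2 could be tested among bovine genes. TNNC1, a troponin, had 0, 0 and 5 reads at 24, 48 and 72 h, against 31 in bFF, and it too reached 10 CPM only in bFF. MYF5, a myogenic factor, rose, with 8, 17 and 60 reads against 2 in bFF (log2 fold change 4.75 ± 1.20, edgeR adjusted p = 0.0274), though not without the 72 h library (edgeR adjusted p = 0.158). Of the mouse genes of this list 6 were tested and Myl7, an atrial light chain, passed as higher than in mESC. It had 117, 71 and 73 reads against 22 in mESC (2.70 ± 0.41, edgeR adjusted p = 0.00456). MYF5, at 0.719 CPM in bFF, and Myl7, at 6.53 CPM in mESC, reached 10 CPM only in heterokaryons. That both were higher there is thus fixed by the filter.

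Markers of other cells were read beside these courses. The 18 listed bovine fibroblast markers summed to 27003, 29845 and 31718 CPM in heterokaryons at 24, 48 and 72 h, against 51244 CPM in bFF, and none was at 0. Of the 17 tested, 6 passed as lower in the 3 heterokaryon libraries than in bFF, among them PDGFRA at -2.63 ± 0.28 (log2, edgeR adjusted p = 0.000177). None passed as higher. Without the 48 h library COL3A1, DCN and LOX no longer passed, with edgeR adjusted p-values up to 0.187. The markers' sum was thus low at all 3 times and did not come back at 72 h as that of the contractile genes did. LUM and PRRX1, 2 of 17, had the dip with return (3.59% of all genes). The 7 listed bovine smooth muscle markers summed to 102, 279.6 and 479 CPM, against 300.2 CPM in bFF, most of it ACTG2, with SMTN at 4, 32 and 39 reads against 4, MYH11 at 4, 0 and 0 reads against 3 and DES at 0, 0 and 0 against 8.

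In the mouse table fibroblast markers bear on the feeder cells, which are mouse fibroblasts. The 20 listed summed to 1530.4, 952 and 996 CPM in heterokaryons at 24, 48 and 72 h, against 910.4 CPM in mESC, and nearly all of this was Sparc and Fn1. Sparc had 1208, 555 and 637 CPM at 24, 48 and 72 h, against 679 CPM in mESC, and so was highest at 24 h, as the list's sum was. Col1a2, Col3a1, Col6a1, Lum, Postn, Lox and Fap had 0 reads in all 4 libraries, and Dcn had 2 in each. Col1a1 had 40, 31 and 29 reads at 24, 48 and 72 h, against 6 in mESC, and Prrx1 had 14, 38 and 42 against 0. These 2 of 5 tested passed as higher than in mESC (edgeR adjusted p = 0.0396 and 0.0219). Neither passed without the 48 h library (edgeR adjusted p = 0.167 for Col1a1 and 0.0870 for Prrx1). Col1a1 and Prrx1 reached 10 CPM only in heterokaryons, so that they were higher there is fixed by the filter. Col5a1 had the 24 h peak, 1 of 5, with 25, 11 and 6 reads against 12 in mESC, and it passed 10 CPM only at 24 h. The part of feeder cells in the 24 h mouse levels was not tested.

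The genes whose profile over the 4 libraries was most like the median of the 10 members were sought among those at 50 CPM or more in 1 library, with the root mean square difference of centred log2(CPM + 1) values as measure. In the bovine table, over 3818 genes, these were RARRES1 (0.0855), SFRP2 (0.101), ACTN1 (0.103), DPYSL3 (0.103) and UPRT (0.167). SFRP2, a secreted WNT modulator, had 438, 1025 and 1722 CPM at 24, 48 and 72 h, against 862 CPM in bFF, and ACTN1, the actin cross-linker alpha-actinin 1, had 68.3, 137 and 233 CPM, against 120.1 CPM in bFF. In the mouse table they were Memo1 (0.0145), Tes (0.0452), Bmpr1a (0.0638), Tiparp (0.0759) and 2210013O21Rik (0.0782). Tes, a LIM protein of focal adhesions, had 58.8, 42.2 and 41.9 CPM, against 28.2 CPM in mESC. The mouse median rests in part on the 4 members near 0 reads, which makes its profile flatter than those of the tropomyosins.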

How the data were processed

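The authors deposited a bovine and a mouse table of whole read counts per RefSeq transcript, with RPM beside them, per the file headers. The deposited RPM equalled the counts scaled by column total, so values were computed from the counts. Builds in the submitters' processing notes are bosTau8, GRCm38 and mm10. The sources used here do not give the aligner, the counter, the handling of strand or how species were separated, so overlapping genes are uncertain. Libraries came from SMART-Seq v4 with 14 cycles, per the labels' protocols. The value 1 never occurs, so a 0 may stand for 1 read. A row of totals was left out. Names turned into dates (23 bovine and 60 mouse) were restored for 23 and 57, and transcripts were summed by name.

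With edgeR 4.0.16 in R 4.3.3 (TMM over all genes, filter of 10 CPM in 1 library or more, Benjamini-Hochberg adjustment over all genes tested, threshold 0.05), 3 heterokaryon libraries were set against 1 control, which is assumed to vary like them. Whether TMM is computed before or after the filter was settled after both results were seen. DESeq2 1.42.0 was an alternative. The script was tested on simulated data, where it missed many moderate changes at this number of libraries, so a gene that did not pass is not shown to be unchanged. All comparisons of a species with its control share that library. Values by time carry 95% exact Poisson or binomial intervals (Python 3.11.15, scipy 1.17.1), and RPKM used GENCODE M21 lengths. Alternatives were other pseudocounts, folds, filters, scalings, single transcripts and leaving out each heterokaryon library. Named genes were the 10 members, in each list the 2 highest and 2 lowest at 24 h against the control and at 72 against 24 h at 50 CPM or more, and the 5 nearest profiles per species. Some genes of 2 lists are not reported here and were left out of the lists' counts. Not all named genes are described, and some others were named after their values were seen. The members and lists were chosen with earlier results of these data known.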

Additional observations from a re-analysis of the deposited data

Results flagged for a closer look

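Bovine and mouse copies of 3 genes moved in opposite directions past 2-fold between the same libraries, or against their own controls. Each difference below is the bovine log2 fold minus the mouse log2 fold on log2(CPM + 1), with 1 library a group, and the difference was not tested. At 24 h against the unfused control, TPM2 differed by -4.58 (bovine -2.17, mouse 2.41) and CALD1 by -3.29 (bovine -1.17, mouse 2.11). Between 48 and 24 h, TPM2 differed by 2.98 (bovine 1.29, mouse -1.70) and TAGLN by 3.49 (bovine 1.08, mouse -2.40). Between 72 and 24 h, TPM2 differed by 3.35 (bovine 2.26, mouse -1.09) and TAGLN by 4.30 (bovine 2.10, mouse -2.20). The mouse values of TAGLN rest on 33 reads at 24 h and 3 or 4 later, and their direction is fixed by the filter of 10 CPM. The bovine dip and the mouse peak were known when the genes were chosen. These differences therefore describe the genes and are no test.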

How the results depend on the processing

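At a 1.5-fold limit, 8 bovine members were lower at 24 h and 8 had the dip with return, and in mouse, where counts here include Tagln, 4 were lower at 72 than at 24 h and 4 had the peak. At 4-fold, 3 bovine members were lower at 24 h, 2 had the dip, 0 were higher at 72 h than bFF and 5 higher at 72 than at 24 h, while in mouse 3 were higher at 24 h, 1 was lower at 72 than at 24 h and 1 had the peak. With a filter of 50 CPM, 1 mouse member was lower at 72 than at 24 h and 1 had the peak. By edgeR against the control 0 mouse members passed as higher, against 2 with DESeq2, 1 with no filter and 1 with TMM after the filter, which was added after seeing the data. Leaving out 1 heterokaryon library in turn, 0 to 6 bovine members passed as higher and 1 to 3 as lower, and 1 to 4 mouse members as higher. Log2 fold changes then ranged from -0.43 to 0.64 for ACTA2, -0.22 to 0.80 for TAGLN, -0.25 to 0.86 for CNN1, and -0.0091 to 0.27 for mouse Csrp1, the negative values being those without the 72 h library (for Csrp1, the 24 h library). Counting for each gene only the transcript with most reads, 74.6%, 96.1% and 97.5% of the members' reads were bovine at 24, 48 and 72 h. The bovine members have 10 listed transcripts, 1 for each gene, and the mouse members have 22. This way of counting thus leaves out mouse reads only. The cause of the other shifts was not tested. With library totals in place of TMM, the median of all bovine genes shifted to -0.23 at 48 h and -0.22 at 72 h against bFF. Of the main counts and shares under these alternatives, 92 stayed within 1.5 times (shares, within their interval) and 24 did not. No paired analysis was possible because each group had 1 library. The depth of 24 h bovine reads limits ACTC1 and CSRP1, and that of mouse reads limits Tagln, Cnn1 and Myl9.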

Other observations

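The bovine table listed 90, 89 and 75 reads of the haemoglobin gene HBA in heterokaryons at 24, 48 and 72 h, against 0 in bFF, while the other markers of blood and of endothelium stayed at 12 reads or fewer in each library. TDH, a stem cell marker of mouse, had 56, 54 and 49 bovine reads, against 29 in bFF (log2 fold change 2.04 ± 0.48, edgeR adjusted p = 0.0195), but it did not pass once reads estimated to be listed under the wrong species were subtracted or with a filter of 50 CPM (adjusted p up to 0.354). Neither gene followed the 24 to 72 h course of the contractile genes.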
